A study of Homo sapiens with 6 samples.

Results

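The Jun and Fos genes and the immediate early genes EGR1, IER2 and IER3 were examined in the mesenchymal line MDA-MB-231, which was established from human breast cancer and lacks hormone receptors, after treatment with nitidine chloride (NCD), a plant alkaloid. The group was fixed by name: FOS, FOSB, FOSL1, FOSL2, JUN, JUNB, JUND, EGR1, IER2 and IER3, each matched by symbol to 1 Ensembl gene, which makes 10 of the 63241 genes in the deposited tables. All 10 passed the filter on low counts and were among the 15295 genes tested. RNA-seq was done on 6 libraries in 2 groups. The NCD group held 3 libraries of cells given 5 μM NCD for 24 h, and the DMSO group held 3 libraries of cells given 0.1% DMSO, the vehicle, for 24 h. The labels give the genotype WT and the cell line MDA-MB-231 for every library, although the description field writes another line number for each of NCD replicates 2 and 3. Nothing in the labels says that the libraries came from separate cultures, so p-values measure the spread between these libraries, which may be technical.

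Jun and Fos proteins are basic leucine zipper factors that pair to form AP-1, a dimer that binds the TRE element (TGACTCA) and related sites. Jun proteins can pair with each other or with a Fos partner, whereas Fos proteins need a partner. Many of these genes are immediate early genes, which growth factors, stress and MAP kinase signalling switch on within minutes without new protein synthesis, through factors such as SRF and CREB that already sit at the promoter. Their mRNAs are commonly short-lived. FOSL1, which encodes FRA-1, is known as the leading Fos gene of mesenchymal breast cancer cells.

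The promoters of the members are described first. RefSeq promoters (GRCh38.p14) matched 8 of the 10 members, all but FOSL1 and IER3. The 250 bases before each start were searched on both strands. Sites further away were not searched, so the absence of a motif refers to these windows only. The CRE core, a short form of the element bound by CREB and ATF factors (TGACG, or CGTCA on the other strand), lay in 8 of these 8 windows, and 21.7% of all 27305 promoters of the same length hold it. CArG boxes, the sites of SRF, were found in EGR1 alone, with CCATATTAGG at 105 to 96 and CCATATATGG at 83 to 74 bases before the start, and 1.14% of all promoters hold one. JUND alone held the full palindrome TGACGTCA (1.77% of all promoters), which contains the CRE core on both strands, and JUN alone held TGACATCA (2.45%), at 67 to 60 bases before its start. TGACATCA was searched as the jun1 octamer, a motif named for JUN, so its match in JUN was fixed in advance. A TATA box (TATAAA) lay in FOS, FOSB and JUNB, against 11.1% of all promoters, while TGACTCA lay in 0 of the 8 windows and in 4.16% of all promoters. The 8 windows with a CRE core include those of JUN, which fell with NCD, and IER2, which did not pass the test. The GC content of the 8 windows was 62.0 to 74.8%, and the shares of all promoters were not matched for it. These matches are a description of letters and say nothing about binding. Below are the windows from 150 bases before the RefSeq start of the 4 genes that rose past the fold limit, without bases that fall inside the GENCODE gene, with CRE cores and CArG boxes in capitals. They lie at chr5:138465329-138465478 for EGR1, chr14:75278678-75278773 for FOS, chr19:45467846-45467994 for FOSB and chr19:12791336-12791485 for JUNB, all on the plus strand.
EGR1: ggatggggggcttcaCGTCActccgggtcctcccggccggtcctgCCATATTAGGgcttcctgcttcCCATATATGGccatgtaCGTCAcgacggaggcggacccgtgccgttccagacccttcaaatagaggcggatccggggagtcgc
FOS: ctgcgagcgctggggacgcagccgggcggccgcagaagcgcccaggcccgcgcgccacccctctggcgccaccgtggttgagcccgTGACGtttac
FOSB: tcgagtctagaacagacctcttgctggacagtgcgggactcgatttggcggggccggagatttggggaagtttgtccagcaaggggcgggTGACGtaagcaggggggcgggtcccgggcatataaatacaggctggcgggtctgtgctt
JUNB: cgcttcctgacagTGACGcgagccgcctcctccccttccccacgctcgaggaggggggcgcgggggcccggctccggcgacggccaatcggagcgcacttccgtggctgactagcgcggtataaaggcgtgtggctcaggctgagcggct

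Library totals ranged from 18223594 to 21629653 expected counts, the estimated reads per gene that RSEM gives. Levels are in CPM, counts scaled to the TMM-adjusted library size. Log2 fold changes are of NCD against DMSO with their standard error (SE), from the quasi-likelihood fit of edgeR, and p-values were adjusted over all tested genes by the Benjamini-Hochberg method. A gene is said to have risen or fallen where the adjusted p is below 0.05, and to be past the fold limit where its absolute log2 fold change is also above 1. All 8 markers fixed for MDA-MB-231 were above 5 CPM on average, with a summed level of 7163 to 7526 CPM with DMSO and 4766 to 5249.9 CPM with NCD. Of these 8, 6 fell, and 4 were past the fold limit lower (50%, against 17.5% of all tested genes). The other 2 rose inside the limit, KRT8 at 0.53 and KRT18 at 0.27 on the log2 scale. Of the 7 luminal markers, ESR1, PGR and CDH1 were below the low-count filter, and the list summed to 44.6 to 47.5 CPM with DMSO and 71.4 to 75.9 CPM with NCD. Of the 4 luminal markers tested, 3 rose and 0 fell, FOXA1 past the fold limit (0.172 to 1.68 CPM on average, log2 fold change 3.25, adjusted p = 0.000926), ERBB2 at 0.71 and EPCAM at 0.57 on the log2 scale. The 8 markers of blood, endothelium and stroma summed to 5.48 to 6.90 CPM with DMSO and 14.3 to 16.3 CPM with NCD. Of the 4 of them tested, 2 rose past the fold limit and 0 fell, PDGFRB from 1.79 to 5.74 CPM and ACTA2 from 2.78 to 8.27 CPM on average, with log2 fold changes of 1.68 and 1.57. The leukocyte markers PTPRC and CD3E averaged 0.0189 and 0.0183 CPM with DMSO and 0.0146 and 0 CPM with NCD. Replicates differed beyond sampling noise, with a chi-square of their counts per degree of freedom of 2.05 for NCD replicates 1 and 2, 14.4 and 12.9 for NCD replicate 3 against these, and 4.17 to 15.4 among the DMSO libraries, highest for replicates 1 and 2. Without each library in turn, 5 to 6 members were past the fold limit. The part of these shifts in the results below was not tested.

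With NCD, 6 of the 10 members rose, 3 fell and IER2 did not pass the test. Past the fold limit were 4 higher genes (EGR1, FOSB, FOS and JUNB) and 1 lower gene (FOSL1), where 31.0% of all tested genes were past it, 13.5% higher and 17.5% lower. By the adjusted p alone 9 members passed, against 69.3% of all tested genes, 35.3% higher and 34.1% lower. The libraries of the groups did not overlap for 9 members, 6 with NCD above and 3 with NCD below, and this held for 72.6% of all tested genes, 37.2% above and 35.3% below. Of all calls past the limit 43.6% were higher, and 56.2% when libraries were scaled by their totals, where all 10 members passed the adjusted p. The median log2 fold change of the members was 0.84, against 0.04 for all tested genes. All members are short genes, spanning 1.36 to 24.86 kb, and among the 7498 tested genes of up to 30 kb 20.2% were past the limit higher and 4.71% lower, with a median of 0.36. In bulk RNA, fewer cells that express a gene and less RNA of it per cell cannot be told apart.

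**Figure D1:**
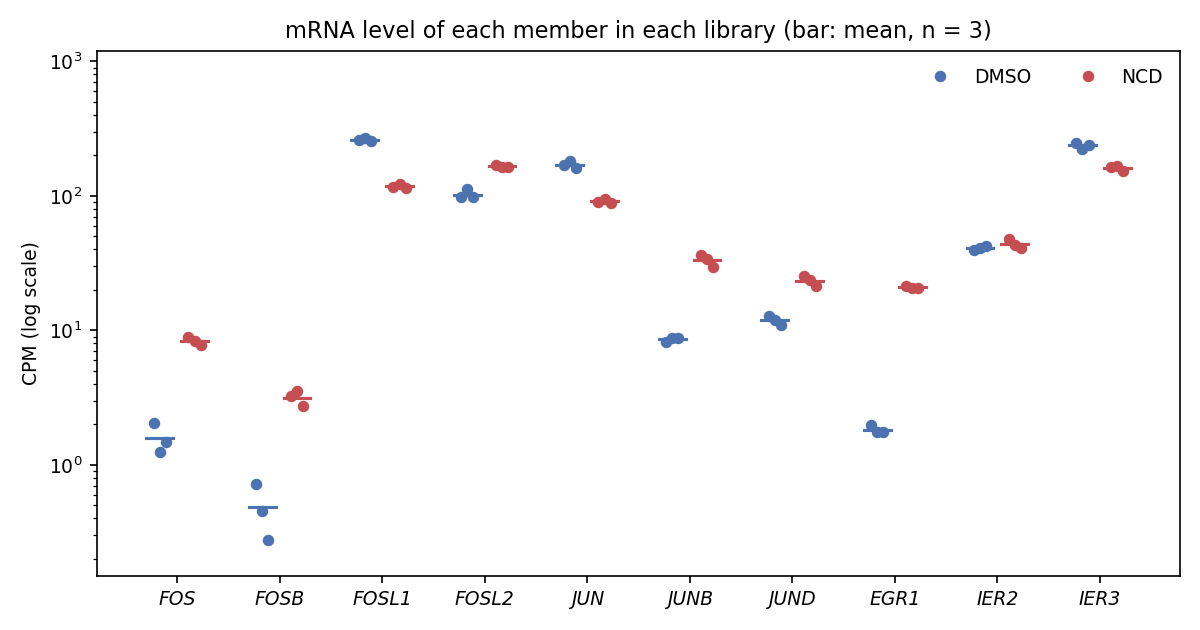
Level of each member in each library in CPM on a log axis, for DMSO (blue) and NCD (red), with points for libraries and a bar for the mean of 3. EGR1, FOS, FOSB and JUNB start at the low end, below 9 CPM with DMSO, and lie higher with NCD. JUND and FOSL2, at 11.9 and 102 CPM on average with DMSO, also lie higher. FOSL1, JUN and IER3 start high and lie lower, and the IER2 groups overlap.

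Among the Fos genes, FOSL1 fell while FOS, FOSB and FOSL2 rose. FOSL1 (ENSG00000175592, chromosome 11, 65892049 to 65900573, minus strand in GENCODE release 29 on GRCh38), which encodes FRA-1, had 260.2, 269.9 and 255 CPM in the DMSO libraries and 117, 123 and 114 CPM in the NCD libraries. Every NCD library lay below every DMSO library, and the means were 262 ± 7.46 CPM (SD, n = 3) and 118 ± 4.30 CPM (SD, n = 3). The log2 fold change was -1.15 (SE 0.06, adjusted p = 2.46e-07), a 2.22-fold lower level. When libraries were scaled by their totals instead of TMM, which moves the median of all tested genes from 0.04 to 0.23, the log2 fold change of FOSL1 was -0.95 (adjusted p = 1.14e-06) and no longer past the fold limit.

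FOSL2 (ENSG00000075426, chromosome 2, 28392448 to 28417312, plus strand), which encodes FRA-2 and is the longest of the 10 genes, moved the other way. It had 97.6, 112 and 97.4 CPM with DMSO and 171, 163 and 163 CPM with NCD. Its log2 fold change of 0.70 (SE 0.07, adjusted p = 2.24e-05) lay inside the fold limit. Every NCD library of FOSL2 thus lay above every DMSO library, while for FOSL1 each lay below.

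FOS (ENSG00000170345, chromosome 14, 75278774 to 75282230, plus strand), the classical growth factor response gene, had 34, 22 and 27 counts with DMSO and 203, 161 and 166 counts with NCD. These were 2.05, 1.24 and 1.48 CPM against 8.87, 8.33 and 7.74 CPM, so the groups did not overlap. The log2 fold change was 2.39 (SE 0.19, adjusted p = 4.36e-06), a 5.23-fold rise. FOSB (ENSG00000125740, chromosome 19, 45467995 to 45475179, plus strand) was the least abundant member, with 12, 8 and 5 counts with DMSO and 74, 68 and 59 counts with NCD. In CPM it averaged 0.483 ± 0.226 against 3.17 ± 0.388 (SD, n = 3 each) without overlap, a log2 fold change of 2.71 (SE 0.31, adjusted p = 5.21e-05), the least precise of the 10. FOSB overlaps ERCC1 on the opposite strand without shared exon bases, and ERCC1 had 811 to 1583 counts per library and was lower with NCD.

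Of the Jun genes, JUN fell while JUNB and JUND rose. JUN (ENSG00000177606, chromosome 1, 58780788 to 58784327, minus strand), an intronless gene for the strongest transactivator of the family, had 169, 181 and 162 CPM with DMSO and 90.5, 94.2 and 88.7 CPM with NCD. All NCD libraries lay below all DMSO libraries, and the log2 fold change was -0.90 (SE 0.06, adjusted p = 1.90e-06), a 1.87-fold lower level inside the fold limit.

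JUNB (ENSG00000171223, chromosome 19, 12791496 to 12793315, plus strand), also intronless and able to oppose JUN at some promoters, had 8.26, 8.71 and 8.77 CPM with DMSO and 36.6, 33.8 and 29.7 CPM with NCD. The lowest NCD library stood well above the highest DMSO library, with a log2 fold change of 1.96 (SE 0.10, adjusted p = 3.82e-07) and a 3.89-fold rise. JUNB shares 259 exon bases with HOOK2 on the opposite strand, which went from 63, 96 and 104 counts to 338, 282 and 290 counts. Since the strandedness of the counting is not given in the sources used here, reads of these overlapping ends cannot be told apart.

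JUND (ENSG00000130522, chromosome 19, 18279760 to 18281622, minus strand), the Jun gene that resting cells commonly express, had 12.8, 12.0 and 10.9 CPM with DMSO and 25.2, 23.5 and 21.4 CPM with NCD. The groups did not overlap, and the log2 fold change of 0.98 (SE 0.10, adjusted p = 3.10e-05) fell just short of the fold limit. Without DMSO replicate 1 it was 1.00, just above the limit before rounding, without NCD replicate 3 it was 1.02, and with library totals it was 1.17, all past the limit.

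**Figure D2:**
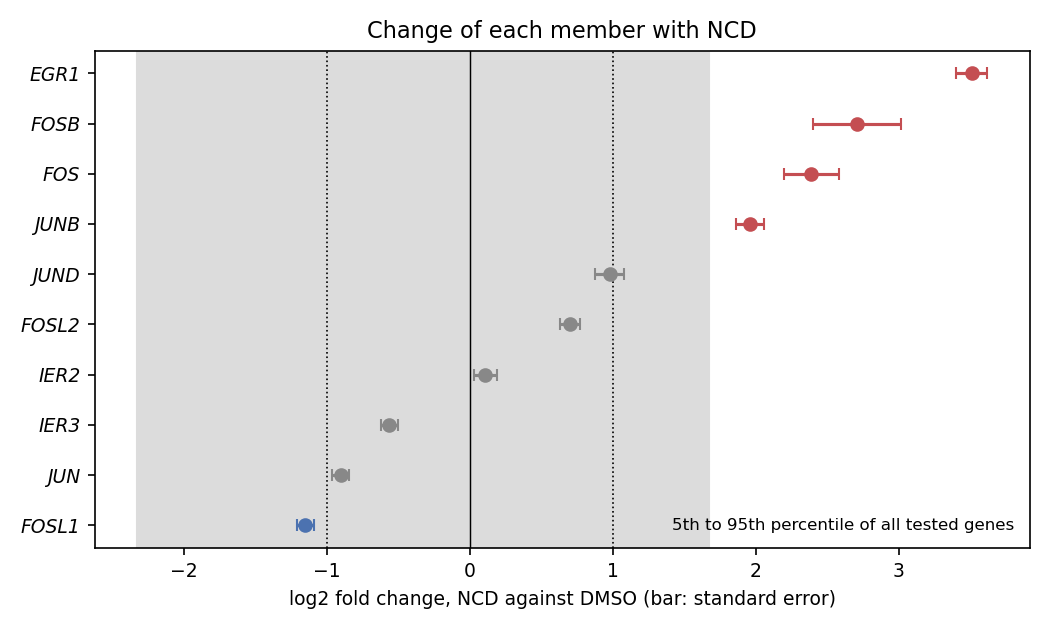
Log2 fold change of each member with NCD against DMSO, with standard errors, coloured red or blue where past the fold limit (dotted lines at 1 and -1) and grey otherwise. EGR1 lies highest at 3.51 and FOSL1 lowest at -1.15, and the shaded band from -2.32 to 1.67 holds the 5th to 95th percentile of all tested genes.

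EGR1 (ENSG00000120738, chromosome 5, 138465490 to 138469315, plus strand), a zinc finger factor known as an SRF-driven gene, whose CArG boxes are printed above, had the largest log2 fold change of the 10 members. It had 33, 31 and 32 counts with DMSO and 487, 401 and 445 counts with NCD. In CPM these were 1.99, 1.75 and 1.75 against 21.3, 20.7 and 20.7. The log2 fold change was 3.51 (SE 0.11, adjusted p = 3.03e-08), an 11.4-fold rise. With DESeq2 and limma-voom the SE was larger, at 0.20 and 0.15. The rise placed EGR1 at percentile 99.5 of all tested genes. FOSB, FOS and JUNB lay at percentiles 98.7, 98.0 and 96.7.

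IER2 and IER3, both immediate early genes as well, differed from EGR1 in direction or size. IER2 (ENSG00000160888, chromosome 19, 13150415 to 13154908, plus strand), which encodes a small nuclear regulator, had 39.9, 40.7 and 42.4 CPM with DMSO and 48.2, 43.5 and 40.7 CPM with NCD. The groups overlapped, and the log2 fold change was 0.11 (SE 0.08, adjusted p = 0.26). Over 14 alternatives its adjusted p ranged from 0.00775 to 0.884, and it was below 0.05 with library totals, where the log2 fold change was 0.30. An antisense gene that shares 946 exon bases with IER2 had at most 3.27 counts in any library. IER3 (ENSG00000137331, chromosome 6, 30743199 to 30744554, minus strand), an inhibitor of apoptosis also known as IEX-1, fell. It had 247, 223 and 241 CPM with DMSO and 164, 167 and 153 CPM with NCD, a log2 fold change of -0.56 (SE 0.06, adjusted p = 5.24e-05). IER3-AS1, antisense to IER3, shares 359 exon bases with it and had at most 24.4 counts in any library.

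Levels between genes were compared per kilobase of exon, as CPM divided by the length of the merged exons of the gene. With DMSO the order was IER3 (175 ± 9.27 CPM per kb, SD, n = 3), FOSL1 (139 ± 3.95), JUN (48.2 ± 2.63), FOSL2 (14.3 ± 1.19), IER2 (13.3 ± 0.412), JUND (6.37 ± 0.519), JUNB (4.71 ± 0.155), EGR1 (0.584 ± 0.0432), FOS (0.491 ± 0.128) and FOSB (0.0870 ± 0.0407). FOSL2 and IER2 overlapped across libraries, as did EGR1 and FOS, and the other neighbours did not. With NCD, IER3, FOSL1 and JUN still led at 119 ± 5.65, 62.5 ± 2.28 and 25.7 ± 0.792 CPM per kb. FOSL2 followed at 23.2 ± 0.640 and JUNB, next in order, at 18.4 ± 1.90, while IER2 and JUND overlapped at 14.4 ± 1.23 and 12.5 ± 1.03. The last places were held by EGR1 at 6.67 ± 0.0978, FOS at 2.57 ± 0.175 and FOSB at 0.570 ± 0.0699 CPM per kb. With the longest transcript as the length, FOS stood above EGR1 with DMSO, still overlapping it, and with NCD JUN and FOSL2 overlapped, as did JUNB and IER2. With that length FOSL2 and IER2 no longer overlapped with DMSO, nor did IER2 and JUND with NCD.

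The summed Fos mRNA went from 154 ± 5.04 to 88.8 ± 2.41 CPM per kb (SD, n = 3), and the summed Jun mRNA from 59.3 ± 2.89 to 56.6 ± 3.33 CPM per kb (SD, n = 3), whose ranges overlap. Within the summed Jun and Fos mRNA, FOSL1 made up 65.2, 64.6 and 65.7% with DMSO and 41.8, 43.7 and 43.5% with NCD. JUN went from 22.6% ± 0.393 (SD, n = 3) to 17.7% ± 0.420 (SD, n = 3), and among the Jun genes alone from 81.3% ± 0.631 to 45.5% ± 2.15. Larger shares with NCD were held by FOSL2, from 6.71% ± 0.330 to 15.9% ± 0.555, by JUNB, from 2.22% ± 0.108 to 12.6% ± 0.911, and by JUND, from 2.99% ± 0.220 to 8.61% ± 0.446. FOS and FOSB stayed small, with 1.76% ± 0.0713 and 0.391% ± 0.0348 of the sum with NCD. These shares describe mRNA and carry no test.

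**Figure D3:**
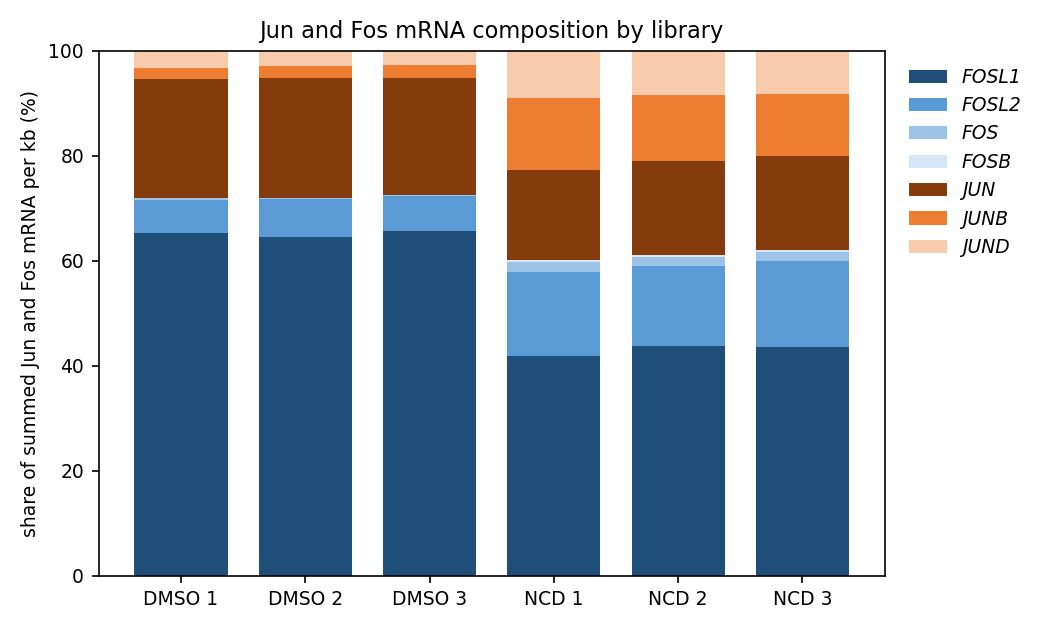
Share of each Jun and Fos gene in their summed CPM per kilobase of exon, in percent, stacked for each of the 6 libraries. FOSL1 and JUN fill most of each DMSO bar, and FOSL2, JUNB and JUND are wider in each NCD bar, with FOSL1 at 41.8 to 43.7%.

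By the root mean square difference of log2 CPM over the 6 libraries, each gene centred on its DMSO mean, the genes most like EGR1 among 11049 with a mean of at least 5 CPM were FST (follistatin), CYP1A1 and IL6, with differences of 0.057, 0.174 and 0.176. Their log2 fold changes were 3.52, 3.37 and 3.34. The genes most like FOSL1 were TRAF3, ATF6B and FJX1, with differences of 0.027, 0.029 and 0.031. With 6 libraries in 2 groups this measure mostly compares the size of the change, and it says nothing of shared control.

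Other bZIP genes (ATF, CREB, BATF, JDP2 and MAF genes) moved in both directions. Many, though not all, of their products can pair with Jun or Fos, and the list is called dimer partners here. Of 18 listed genes 17 were tested, with a median log2 fold change of 0.42. Past the fold limit were 5 higher (29.4%) and 2 lower (11.8%), against 13.5% and 17.5% of all tested genes. ATF3, a stress-induced partner and itself an immediate early gene, rose from 6.34 ± 0.805 to 58.5 ± 5.63 CPM (mean ± SD, n = 3 each), a log2 fold change of 3.21 (SE 0.12, adjusted p = 5.71e-08). JDP2, which encodes a Jun dimerization protein that represses AP-1, rose from 7.80 ± 1.65 to 41.7 ± 3.08 CPM (mean ± SD, n = 3 each), with a log2 fold change of 2.42 (adjusted p = 6.48e-07). CREB5 fell from 27.7 ± 3.26 to 6.33 ± 1.19 CPM (mean ± SD, n = 3 each), with a log2 fold change of -2.13 (adjusted p = 2.06e-06), and spans 526.57 kb. The median span of the 2 lower genes was 311 kb, against 12.3 kb for the 5 higher ones.

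Other immediate early genes moved in both directions too. Of 28 listed genes 24 were tested, and the median log2 fold change was 0.66. Past the fold limit were 8 higher (33.3%) and 3 lower (12.5%), against 13.5% and 17.5% of all tested genes. NR4A1, an orphan nuclear receptor, rose from 2.10 ± 0.315 to 20.7 ± 2.18 CPM (mean ± SD, n = 3 each), a log2 fold change of 3.30 (SE 0.15, adjusted p = 1.40e-07). BTG2, an antiproliferative gene, had a log2 fold change of 2.38 (SE 0.17, adjusted p = 2.68e-06), and ATF3 is also on this list. The 3 genes past the limit lower were CCN2, CCN1 and JMJD6, with log2 fold changes of -1.67, -1.12 and -1.31. They are named here because they are few, after their values were seen, and CCN1 and CCN2 encode matrix proteins that respond to SRF and YAP. Unlike in the list above, the median span of the 3 lower genes was the smaller, 3.2 kb against 15.3 kb for the 8 higher ones.

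Regulators that act on immediate early promoters were mostly lower where past the fold limit. All 20 were tested, with a median log2 fold change of -0.30. Past the fold limit were 1 higher (5%, CRTC2 at 1.03) and 7 lower (35%), against 13.5% and 17.5% of all tested genes. SRF itself, named here as the factor of the CArG box, had a log2 fold change of 0.44 (adjusted p = 0.000487). Its coactivators of the myocardin family fell, MRTFB from 19.5 ± 2.80 to 2.25 ± 0.820 CPM (mean ± SD, n = 3 each) with a log2 fold change of -3.11 (adjusted p = 2.35e-06), and MRTFA with a log2 fold change of -2.37 (adjusted p = 8.81e-06). TCF7L2, a partner of beta-catenin, had a log2 fold change of -2.22 (adjusted p = 8.73e-07). The 7 lower genes had a median span of 187 kb, and the 12 genes within the limit or not passing had one of 50.1 kb.

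MAP kinase cascade components are the kinases and GTPases that signal to these promoters. Of the 35 tested, 13 were lower past the fold limit (37.1%) and 1 higher (2.86%), MKNK2, against 17.5% and 13.5% of all tested genes. The median log2 fold change was -0.60. BRAF fell from 41.5 ± 3.94 to 5.16 ± 1.11 CPM (mean ± SD, n = 3 each), a log2 fold change of -3.00 (SE 0.15, adjusted p = 2.53e-07). MAP3K5 (ASK1, a stress kinase) and MAP2K5 (the kinase of ERK5) had log2 fold changes of -2.99 (adjusted p = 2.06e-07) and -2.63 (adjusted p = 4.96e-07). The median span of the 13 lower genes was 139 kb, against 30.6 kb for the 21 that were not past the limit, and the part of gene length was not tested.

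Genes for the decay of AP-1 mRNAs and proteins were lower past the fold limit in 6 of 16 tested (37.5%) and higher in 2 (12.5%), ZFP36 and ZFP36L2, which bind AU-rich mRNAs. COP1, a ubiquitin ligase for JUN, fell from 41.7 ± 1.26 to 2.69 ± 0.232 CPM (mean ± SD, n = 3 each), a log2 fold change of -3.95 (SE 0.10, adjusted p = 1.35e-08). FBXW7, the substrate receptor of another ubiquitin ligase for JUN, had a log2 fold change of -1.92 (adjusted p = 2.31e-06). Over all tested genes 17.5% were past the limit lower and 13.5% higher. The list's median was -0.91, and the 6 lower genes had a median span of 154 kb.

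Known targets of AP-1 and EGR1 did not move one way. Of 34 listed genes 32 were tested, with a median log2 fold change of -0.47. Past the fold limit were 5 higher (15.6%) and 9 lower (28.1%), against 13.5% and 17.5% of all tested genes. IL6, an inflammatory cytokine, rose from 4.32 ± 0.625 to 43.7 ± 2.61 CPM (mean ± SD, n = 3 each), a log2 fold change of 3.34 (SE 0.12, adjusted p = 4.23e-08). TNC, the matrix glycoprotein tenascin C, had a log2 fold change of -2.50 (SE 0.09, adjusted p = 5.09e-08). The median span of the 9 lower genes was 24.5 kb, against 13.9 kb for the 5 higher ones.

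**Figure D4:**
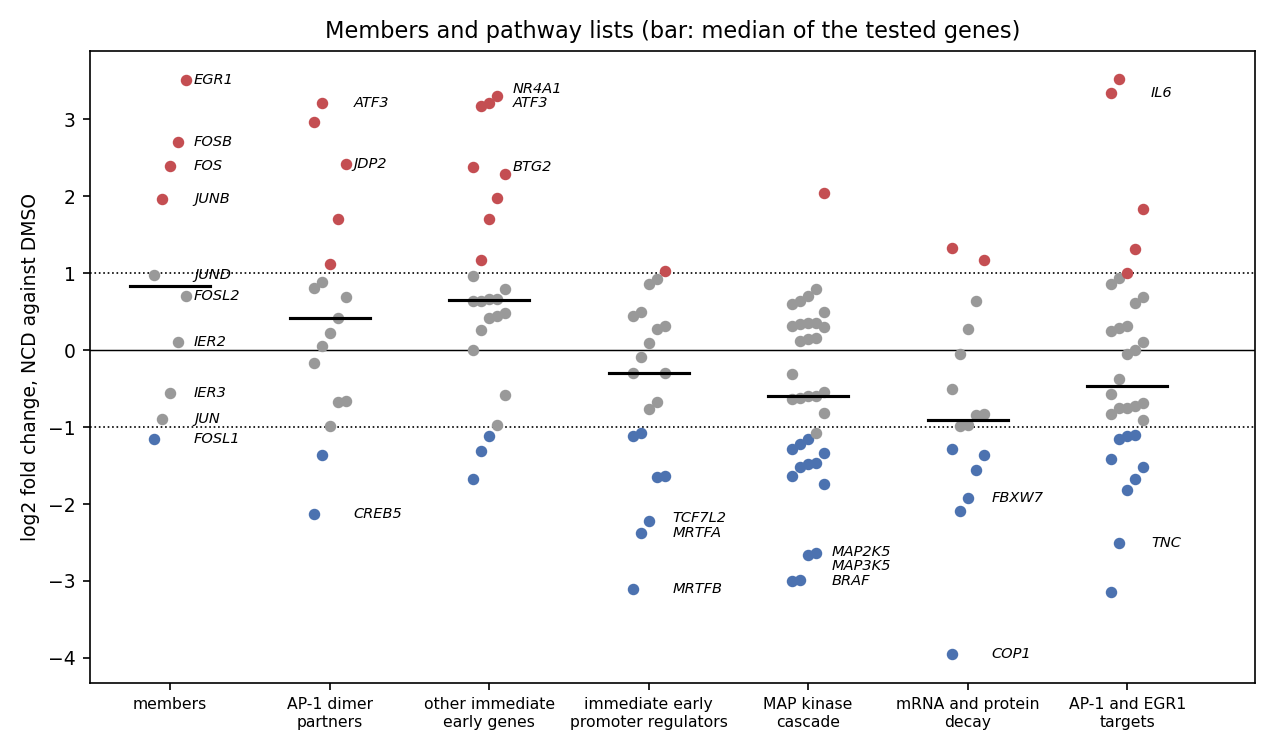
Log2 fold change with NCD of each tested gene of the members and of the 6 pathway lists, with the median as a bar, dotted lines at the fold limit, and red or blue points past it. The medians lie at 0.84 for the members and 0.66 for other immediate early genes, and at -0.60 for MAP kinase components and -0.91 for decay genes.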

How the data were processed

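RNA-seq libraries of MDA-MB-231 cells (3 with DMSO, 3 with NCD) were compared. The authors aligned reads with HISAT2 and deposited RSEM expected counts per Ensembl gene, without normalization and with GRCh38 (hg38) in the submitters' processing notes. Tool versions, annotation release and strandedness are not given in the sources used here. In each deposited file 25 lines without a gene were skipped, and 62666 of 63241 identifiers had a symbol. Gene structures came from GENCODE release 29, which holds 58228 of them.

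Expected counts were rounded and tested with edgeR 4.0.16 (R 4.3.3; filterByExpr, TMM, glmQLFit and glmQLFTest). Standard errors are the absolute log2 fold change over the square root of F. At these depths (18223594 to 21629653 counts) genes with a few counts cannot be measured. On simulated counts for NCD against DMSO 191 of 196 changed genes among 14724 were recovered, with 3 false calls. Far fewer genes were changed there than the 4736 of 15295 past the fold limit in the data. Recovery near the fold limit is not given separately, so these numbers do not describe members close to it. Within groups the chi-square per degree of freedom between libraries was 2.05 to 15.4, so no library was a copy of another within sampling noise.

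Members, lists and motifs were chosen with earlier results of these data known. Named genes are the members, and per list the 3 genes past the fold limit with the largest change, a mean of at least 5 CPM and no overlap between groups, and the 3 genes most like the members with the largest rise and fall. For 2 genes that this rule gave, values are not reported here. Alternatives were DESeq2 1.42.0, limma-voom (limma 3.58.1), library totals, relative log expression factors, no filter, a minimum of 10 counts per library, no fold limit, a prior count set to 2, a block for the replicate number, each library left out and the longest transcript as length. Each member had 1 identifier, so summing identifiers was not run.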

Additional observations from a re-analysis of the deposited data

How the results depend on the processing

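No member changed direction under any of the 14 alternatives (13 for FOSB, which at least 10 counts in every library removed). Of 139 such values 135 kept the side of the fold limit. The exceptions were FOSL1 at -0.95 with library totals, and JUND at 1.17 with library totals, 1.00 without DMSO replicate 1 and 1.02 without NCD replicate 3. Over all libraries left out in turn, JUND ranged from 0.88 to 1.02. Library totals moved the median of all tested genes from 0.04 to 0.23, and of all genes past the limit 56.2% were then higher (2793 higher, 2181 lower), against 43.6% with TMM (2067 higher, 2669 lower). For the 17 genes that the rule gave from the lists, all 238 values kept direction and side. The genes most like EGR1 and FOSL1 were not run under the alternatives, except IL6 as a list gene.

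Leaving out each library gave 4653 to 5049 genes and 5 to 6 members past the limit. Without the fold limit 10602 of 15295 tested genes (69.3%) and 9 of 10 members passed. So did 12 of 17 dimer partners, 22 of 24 other immediate early genes and 17 of 20 promoter regulators. For MAP kinase components it was 29 of 35, for decay genes 15 of 16 and for targets 26 of 32. These counts are larger than with the limit by construction. With the longest transcript as length, the share of FOSL1 was 67.6% with DMSO and 45.1% with NCD, that of JUN 20.7% and 16.4%, that of JUND 2.74% and 7.99%, and that of FOS 0.319% and 2.46%, while that of JUNB was 2.03% with DMSO and that of FOSB 0.534% with NCD. These moves follow from the lengths used.

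Replicate numbers did not pair the libraries, with correlations of their deviations of 0.216, -0.185 and 0.0226. A fit with the replicate block called 4723 genes and 5 members. Not every library correlated best with its own number.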

Other observations

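Of the other EGR genes and the synaptic immediate early gene ARC, all were below the low-count filter and were not tested in the main fit. The alternative without a filter tested all 28 listed immediate early genes. It put 10 of them past the fold limit higher and 3 lower, against 8 and 3 in the main fit. EGR2 had 0, 1 and 1 counts with DMSO and 4, 11 and 10 counts with NCD. EGR3 had 5, 1 and 1 counts against 8, 10 and 3. EGR4 had 0, 0 and 0 counts against 1, 3 and 2, and ARC had 2, 2 and 0 counts against 18, 3 and 9. For these genes a difference from EGR1 in response was not tested.

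The other NR4A receptors moved in the direction of NR4A1, and were picked here after their values were seen. In the edgeR test NR4A2 had a log2 fold change of 1.98 (SE 0.16, adjusted p = 4.43e-06) and NR4A3 one of 3.18 (SE 0.33, adjusted p = 2.79e-05), with every NCD library above every DMSO library in both. NR4A3 had only 3, 10 and 5 counts with DMSO, against 68, 59 and 74 with NCD, so the size of its change rests on few reads. The small MAF genes MAFK and MAFG had log2 fold changes of 1.71 and 1.12, both past the fold limit. MAFF, also a small MAF gene, rose by 0.42 on the log2 scale, inside the limit. These MAF genes were not given by the rule for named genes.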
